A study of Homo sapiens with 19 samples.

Results

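Human liver organoids grown in plates with an ultra-low attachment (ULA) surface were compared between day 34 and day 21 of the differentiation protocol. The libraries were chosen by their titles, 2 from day 34 and 3 from day 21, which are 5 of the 19 libraries of the series. They held 34289 cells after barcodes with fewer than 500 genes, or with more than 20% of counts from mitochondrial genes, had been left out. All 5 came from wild-type organoids of the human pluripotent stem cell line W01 (WiCell) that received no treatment, so the groups represent 1 line. The day 21 organoids were dissociated with trypsin for 10 minutes, and the day 34 organoids had a further wash and 10 more minutes of trypsin. Time in culture and length of dissociation therefore cannot be told apart. The labels call the libraries replicates without saying whether they came from separate differentiations, so p-values measure the spread between these libraries, which may be technical.

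Liver organoids are grown from pluripotent stem cells that are steered first into endoderm and foregut and then toward hepatoblasts, the common progenitors of hepatocytes and bile duct cells. Such cultures usually also hold mesenchymal cells. Hepatocytes secrete albumin, apolipoproteins and clotting factors, and their identity is held by a network of transcription factors that includes HNF4A and the FOXA and GATA families. Stratified squamous epithelium, the tissue of skin and oesophagus, is built from a basal layer that rests on a basement membrane and from suprabasal layers that make a cornified envelope.

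The kept cells held 88292942, 68073369 and 82188131 UMIs in day 21 replicates 1 to 3 and 77840879 and 91184130 UMIs in day 34 replicates 1 and 2. Median UMIs per kept cell were 10084 to 11634 on day 21, and 14304.5 and 5959 in day 34 replicates 1 and 2. The median mitochondrial share was 6.85% to 11% on day 21 and 3.89% and 5.99% on day 34. Spearman correlations of gene levels were 0.987 to 0.993 between day 21 libraries, 0.967 between the day 34 libraries and 0.930 to 0.956 between days. The day 34 libraries thus differed from each other more than the day 21 libraries did, and values are given for each library throughout. Libraries shared 9 to 40 cell barcodes per pair, at most 0.543% of the smaller library. Kept cells numbered 5902, 5335 and 6299 in day 21 replicates 1 to 3 and 4326 and 12427 in day 34 replicates 1 and 2. Doublets were kept, since the caller marked 0 to 0.0169% of cells in 4 libraries and 13.9% in day 34 replicate 2. At an assumed 0.8% per 1000 barcodes, the doublet share would be 5.27% to 5.89% on day 21, and 3.61% and 10.7% in day 34 replicates 1 and 2.

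Of 22257 genes tested, 3475 (15.6%) passed an adjusted p of 0.05 in edgeR's quasi-likelihood test on counts summed per library, with Benjamini-Hochberg adjustment over all genes tested. Of these, 1876 (8.43%) were higher on day 34 and 1599 (7.18%) were lower, and the median log2 fold change of all genes was 0.01. Levels below are in CPM, UMI counts scaled to a common library total after TMM scaling. Fold changes are log2 of day 34 over day 21 with a standard error derived from the test statistic, and a gene is called when it passed this test. Groups did not overlap for 24.5% of all genes in the upward and 25.1% in the downward direction. In whole libraries, fewer cells of a type and less RNA per cell cannot be told apart. Leaving out day 21 replicate 1, 2 or 3 left 773, 1423 and 697 calls, and leaving out day 34 replicate 1 or 2 gave 4539 and 7165. In the last pair of fits the lone day 34 library was assumed to vary like the day 21 libraries. The genes tested in these fits were 21864, 22016 and 21949, and then 23419 and 23334. Without day 21 replicate 1, 2 or 3, the calls were 443, 755 and 381 higher and 330, 668 and 316 lower. The totals differ widely, so each count of list calls given below for such a fit is to be read beside the total of that fit. Among the 33 gene lists examined, the basal squamous, pluripotency, suprabasal, gut, immediate early and hepatocyte transcription factor lists held the highest shares of calls. The lists were chosen with earlier results of these data known, so the share of all genes beside a list count is a reference and not a test.

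**Figure D1:**
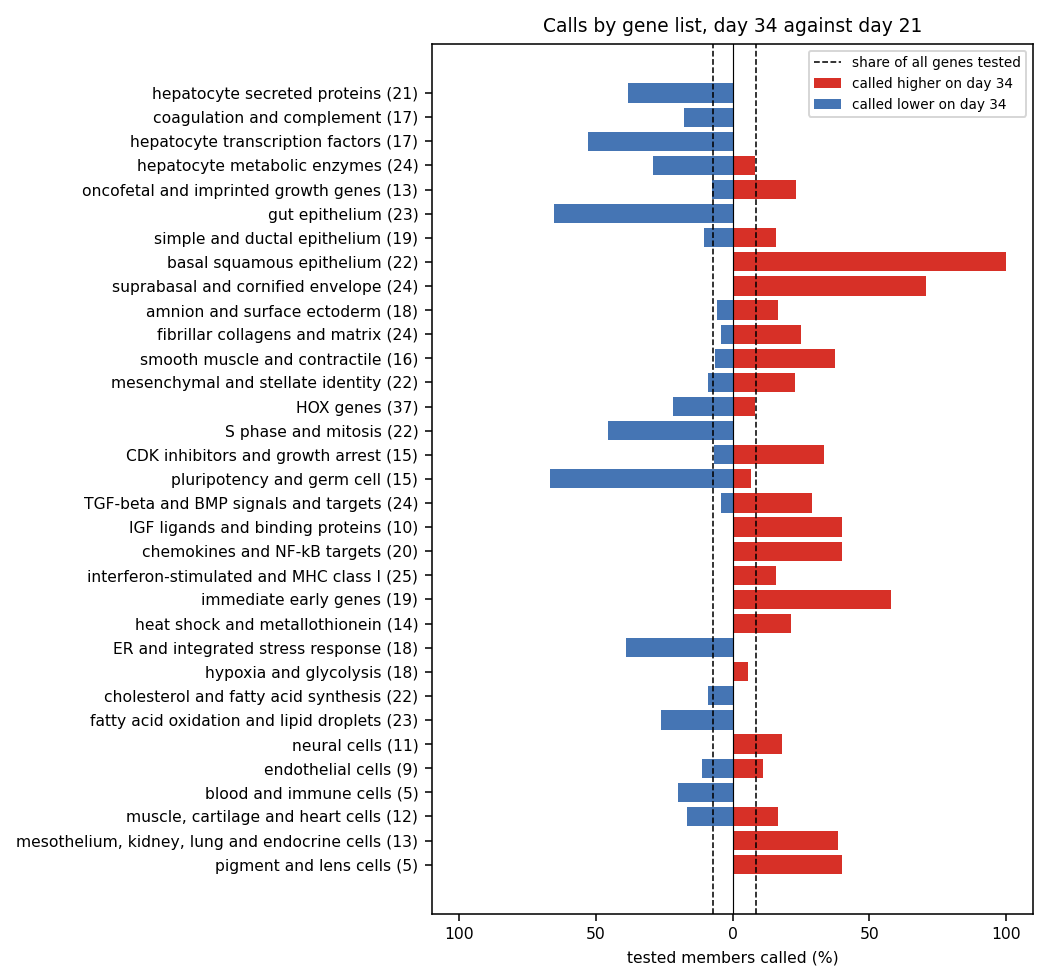
Share of the tested members of each gene list that was called higher (right, red) or lower (left, blue) on day 34, in percent, with the number tested in brackets and dashed lines at the shares of all genes (8.43% and 7.18%). All 22 basal squamous members lie to the right. The gut, secreted hepatocyte protein, hepatocyte transcription factor and mitosis lists have calls to the left only. The pluripotency and hepatocyte enzyme lists have calls on both sides, more of them to the left.

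Genes of the basal layer of squamous epithelium rose. All 22 members of the basal squamous list were tested, 22 were called higher against 8.43% of all genes, and their median log2 fold change was 3.54 against 0.01 over all genes. KRT5, the type II keratin of basal keratinocytes (chr12:52514575-52520530), stood at 4.50, 1.34 and 3.23 CPM on day 21 and 226 and 748 on day 34. Its day 34 values lay far above all day 21 values, and the gene rose (log2 fold change 7.32 ± 0.69, edgeR adjusted p = 0.0017). KRT17, a type I keratin of basal and appendage cells (chr17:41619442-41624842), was at 13.1, 9.24 and 10.1 CPM on day 21 and 1168 and 2361 on day 34. Both day 34 libraries were again above all day 21 libraries, with day 34 replicate 2 the higher (log2 fold change 7.35 ± 0.38, edgeR adjusted p = 0.00036). KRT6A, a keratin of activated keratinocytes (chr12:52487176-52493257), was at 0.733, 0.648 and 0.677 CPM on day 21 and 290.0 and 135 on day 34, and here day 34 replicate 1 was the higher (log2 fold change 8.27 ± 0.38, edgeR adjusted p = 0.00023). KRT6A, KRT6B and KRT6C are near-identical copies, so the split of reads between them is uncertain.

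TP63, the transcription factor that sets basal squamous identity, was measured at 6.89, 5.94 and 7.16 CPM on day 21 and 24.9 and 25.5 on day 34, close values within each group with no overlap (log2 fold change 1.92 ± 0.17, edgeR adjusted p = 0.0015). KRT14, the usual partner of KRT5, was at 0.0458, 0.0154 and 0.0256 CPM on day 21 and 2.40 and 1.61 on day 34, so it rose from near 0 to a level that was still low (log2 fold change 5.99 ± 0.46, edgeR adjusted p = 0.0012). TRIM29, a gene of stratified epithelia, was at 0.687, 0.571 and 0.741 CPM on day 21 and 18.7 and 20.2 on day 34 (log2 fold change 4.86 ± 0.21, edgeR adjusted p = 0.00022). S100A2, a calcium-binding protein of basal cells (chr1:153561108-153567890), was at 2.16, 1.62 and 1.71 CPM on day 21 and 30.8 and 219 on day 34 (log2 fold change 6.09 ± 0.76, edgeR adjusted p = 0.0040), with day 34 replicate 2 far above replicate 1. KRT16 (chr17:41609778-41615899), the partner of KRT6A, was at 0.595, 0.139 and 0.358 CPM on day 21 and 19.6 and 27.5 on day 34 (log2 fold change 5.98 ± 0.48, edgeR adjusted p = 0.0015). Of the genes that fix basal cells to the basement membrane or to each other, COL17A1 rose by 2.99, the desmosomal cadherin DSC3 by 3.52 and the plakin DST by 1.57 on the log2 scale (edgeR adjusted p = 0.0015, 0.00029 and 0.0058). SFN, the epithelial 14-3-3 protein, rose by 3.57 and PERP, a desmosome-associated membrane protein, by 1.15 (edgeR adjusted p = 0.0040 and 0.020). The list held 16, 18 and 15 calls when day 21 replicate 1, 2 or 3 was left out, and 21 and 20 when day 34 replicate 1 or 2 was left out. PERP was among the genes whose call was lost, with an edgeR adjusted p of up to 0.091, and S100A2 reached 0.051.

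Most tested genes of the differentiated layers rose as well. Of 34 members of the suprabasal and cornified envelope list, 24 passed the count filter, 17 of those were called higher against 8.43% of all genes and 0 lower, and the median log2 fold change was 3.0. KRT13, a keratin of the suprabasal layers of internal squamous epithelia (chr17:41500981-41505705), was at 0.206, 0.324 and 0.281 CPM on day 21 and 22.3 and 564 on day 34. Day 34 replicate 2 was far above replicate 1, and both were above all day 21 libraries (log2 fold change 10.09 ± 1.35, edgeR adjusted p = 0.0052). The small proline-rich proteins SPRR1B (chr1:153031203-153032900) and SPRR3 (chr1:153001747-153003856) are crosslinked into the cornified envelope. SPRR1B was at 0.401, 0.0771 and 0.0639 CPM on day 21 and 19.7 and 80.0 on day 34 (log2 fold change 8.03 ± 0.86, edgeR adjusted p = 0.0025). SPRR3 was at 1.21, 0.555 and 0.767 CPM on day 21 and 27.2 and 52.2 on day 34 (log2 fold change 5.54 ± 0.41, edgeR adjusted p = 0.0010).

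S100A8 (chr1:153390032-153391073), a calcium-binding protein that squamous cells make under stress and that myeloid cells also make, was at 0.366, 0.524 and 0.422 CPM on day 21 and 27.1 and 177 on day 34 (log2 fold change 7.87 ± 0.80, edgeR adjusted p = 0.0021). Its partner S100A9 was at 71.2, 38.4 and 57.8 CPM on day 21 and 593 and 321 on day 34 (log2 fold change 3.03 ± 0.34, edgeR adjusted p = 0.0029). SPRR2D, which belongs to a set of near-identical copies and is uncertain for that reason, was at 0.0343, 0.0154 and 0 CPM on day 21 and 2.11 and 3.71 on day 34. The desmosomal cadherin DSC2 was at 102, 87.7 and 108 CPM on day 21 and 353 and 333 on day 34 (log2 fold change 1.79 ± 0.17, edgeR adjusted p = 0.0017). Some genes were close to 0 on day 21. DSG1, the desmosomal cadherin of differentiated skin layers, had 2 UMIs in the 3 day 21 libraries and 1057 in the 2 day 34 libraries, a ratio of 746 in CPM (exact 95% interval 206 to 6167, counting error only). KRT1, a keratin of cornifying skin, had 2 and 1067 UMIs (ratio 753, 208 to 6225), nearly all of them in day 34 replicate 2, which held 10.7 CPM against 0.522 CPM in replicate 1. IVL, the envelope precursor involucrin, was at 0.0229, 0 and 0.0511 CPM on day 21 and 0.801 and 6.52 on day 34. KRT10, which other tissues also express, overlapped between groups at 324, 382 and 276 CPM on day 21 and 369 and 773 on day 34, and S100A14 was at 237, 133 and 189 CPM on day 21 and 274 and 485 on day 34 without passing the test (edgeR adjusted p = 0.13 and 0.067). The list held 14, 15 and 12 calls without day 21 replicate 1, 2 or 3, and 22 and 20 without day 34 replicate 1 or 2. KRT13 reached an edgeR adjusted p of 0.057, KRT1 0.078 and IVL 0.061 in the least favourable of these fits.

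The upstream sequences of SPRR1B and SPRR3 are shown because their genes are among the 10 with the largest called increase (no overlap between groups and at least 10 CPM on average in the higher group). The 180 bases before the RefSeq transcription start are given 5′ to 3′ on the plus strand of GRCh38.p14 (chr1:153031023-153031202 and chr1:153001569-153001748), with matches to TGANTCA, the letters bound by AP-1 (the FOS and JUN family), in capitals.
SPRR1B: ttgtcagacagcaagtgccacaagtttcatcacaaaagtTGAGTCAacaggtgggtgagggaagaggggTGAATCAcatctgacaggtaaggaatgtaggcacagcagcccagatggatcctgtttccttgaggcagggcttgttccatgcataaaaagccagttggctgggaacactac
SPRR3: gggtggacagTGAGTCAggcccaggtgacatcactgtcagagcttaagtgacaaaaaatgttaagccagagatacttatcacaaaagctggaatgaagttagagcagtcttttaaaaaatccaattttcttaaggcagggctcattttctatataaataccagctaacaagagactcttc
SPRR1B holds 2 matches and SPRR3 holds 1. In the 250 bases before RefSeq starts, TGANTCA occurred on either strand in 10 of 31 promoters of the suprabasal list (26 genes matched), 4 of 18 of the basal list (12 genes matched), and in 6.57% of all 35116 promoters. It also occurred in 4 of 14 promoters of hepatocyte transcription factors and 5 of 18 of the gut list, whose called members were lower on day 34. Both strands were also searched for CAAAGTCCA, named for HNF4 and found in 0.325% of all promoters. TTTATNG, named for CDX factors, was found in 8.93% of all promoters in 7 of 18 of the gut list, in 7 of 21 of the chemokine list and in 8 of 31 of the suprabasal list. GNCACGTG, an E-box, was found in 3.97%. The serum response factor box was found in 0.0313%. The TATA box was found in 10.7% of all promoters in 13 of 31 of the suprabasal list and in 15 of 36 of the hepatocyte enzyme list, and can overlap the reverse complement of the CDX letters. These are matches of letters in a window, and no binding was measured.

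Squamous transcripts were found in many cells of day 34. With cells thinned to 3000 UMIs (87.9% to 98.7% of the kept cells of a library reached that depth, and shallower cells were left out), at least 1 KRT17 UMI was present in 2.73%, 1.73% and 2.31% of day 21 cells and 43.8% and 74.9% of day 34 cells. Without thinning, the shares were 8.39%, 5.17% and 6.87% of day 21 cells and 58.4% and 80.1% of day 34 cells. In cells carrying hepatocyte markers, which were assumed to lack the gene, KRT17 was found in 0 of 597, 0 of 356 and 1 of 645 cells on day 21. A count of 0 allows shares of up to 0.503% and 0.843%, taken as 3 counts of the total (exact 95% upper limits 0.616% and 1.03%). In day 34 replicate 2 KRT17 was found in 33.5% of 251 hepatocyte-marked cells (exact 95% binomial interval 27.7% to 39.7%). Their median depth was 8525 UMIs against 6858.5 in simple epithelial-marked cells. All such intervals and limits cover counting error only. Day 34 replicate 1 had 2 hepatocyte-marked cells, too few for a share. KRT5 UMIs were present in 0.774%, 0.310% and 0.542% of day 21 cells and 22.6% and 54.3% of day 34 cells, and in 18.7% of hepatocyte-marked cells of day 34 replicate 2 (14.1% to 24.1%). The 33.5% in day 34 replicate 2 is a background level only if hepatocyte-marked cells lack the gene. The part of doublets, free RNA and expression by these cells was not tested. In the same library 57.0% of mesenchymal-marked and 89.1% of simple epithelial-marked cells had a KRT17 UMI.

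A large increase also lay outside these lists. IGFL2, a member of the IGF-like family (chr19:46143106-46161298), was at 2.90, 1.26 and 1.60 CPM on day 21 and 124 and 354 on day 34 (log2 fold change 6.95 ± 0.56, edgeR adjusted p = 0.0015). It is the only gene among those 10 that belongs to neither squamous list.

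**Figure D2:**
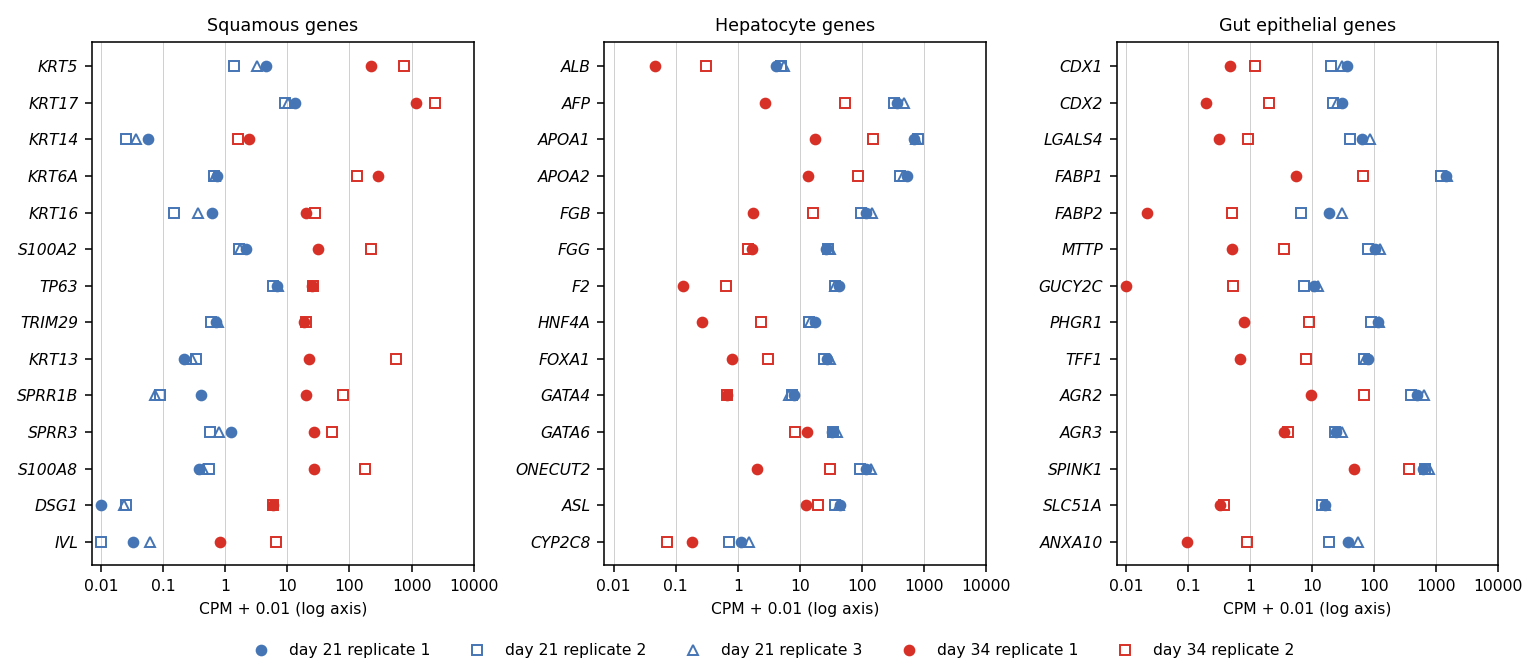
Level of squamous (left), hepatocyte (middle) and gut epithelial (right) genes in each library, as CPM plus 0.01 on a log axis, with day 21 in blue and day 34 in red. Red symbols lie right of the blue ones for squamous genes and left of them for the other panels, and day 34 replicate 1 is mostly the lower of the red symbols among hepatocyte and gut genes.

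Genes of secreted hepatocyte proteins fell in part. Of 21 tested members, 8 were called lower against 7.18% of all genes, 0 were called higher, and the median log2 fold change was -2.14. Groups did not overlap in the downward direction for 18 of the 21, against 25.1% of all genes. AFP, the fetal counterpart of albumin (chr4:73431138-73456174), was at 374, 331 and 482 CPM on day 21 and 2.72 and 53.5 on day 34. The day 34 values were below all day 21 values and far apart, and the gene did not pass the test (log2 fold change -3.81 ± 1.08, edgeR adjusted p = 0.054). ALB (chr4:73397114-73421482) was at 4.20, 4.90 and 5.59 CPM on day 21 and 0.0364 and 0.292 on day 34, so it was low on day 21 and close to 0 on day 34, where the libraries held 3 and 28 UMIs (log2 fold change -4.85 ± 0.69, edgeR adjusted p = 0.0063). APOA1, the main protein of high-density lipoprotein, was at 700.3, 806 and 741 CPM on day 21 and 17.4 and 149.9 on day 34 (log2 fold change -3.16 ± 0.81, edgeR adjusted p = 0.039). APOA2 was at 535, 415 and 463 CPM on day 21 and 13.5 and 87.7 on day 34 (log2 fold change -3.22 ± 0.72, edgeR adjusted p = 0.027).

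The fibrinogen chains FGB and FGG were at 116, 96.2 and 148 CPM on day 21 and 1.78 and 16.1 on day 34 and 26.8, 28.6 and 30.8 CPM on day 21 and 1.66 and 1.45 on day 34, respectively. Both fell (log2 fold change -3.75 ± 0.84 and -4.21 ± 0.20, edgeR adjusted p = 0.027 and 0.00023), and FGG was alike in both day 34 libraries while FGB was not. SERPINA1, the protease inhibitor alpha-1 antitrypsin, was at 836, 655 and 662 CPM on day 21 and 53.2 and 431 on day 34 and TTR, the thyroid hormone carrier, at 113, 97.3 and 130.5 CPM on day 21 and 1.06 and 51.5 on day 34. Neither passed the test (edgeR adjusted p = 0.19 and 0.26). For these genes day 34 replicate 2 lay much nearer to day 21 than replicate 1 did. The list held 2, 2 and 1 calls without day 21 replicate 1, 2 or 3, but 14 and 18 without day 34 replicate 1 or 2. Without day 34 replicate 1 its median was -1.40, and without replicate 2 it was -5.39.

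Transcription factors of the liver network fell in part. Of 17 tested, 9 were called lower against 7.18% of all genes and 0 higher, with a median log2 fold change of -1.90, and 14 did not overlap in the downward direction against 25.1% of all genes. FOXA1, a pioneer factor of endoderm, was at 27.4, 24.3 and 30.2 CPM on day 21 and 0.813 and 3.08 on day 34 (log2 fold change -3.80 ± 0.53, edgeR adjusted p = 0.0061). GATA4 was at 8.01, 7.54 and 6.61 CPM on day 21 and 0.655 and 0.657 on day 34 (log2 fold change -3.49 ± 0.26, edgeR adjusted p = 0.0010) and GATA6 at 32.6, 34 and 40.1 CPM on day 21 and 12.9 and 8.52 on day 34 (log2 fold change -1.73 ± 0.23, edgeR adjusted p = 0.0050), and both are endoderm and heart factors. HNF4A, the nuclear receptor at the centre of hepatocyte identity, was at 17.7, 14 and 14.5 CPM on day 21 and 0.255 and 2.33 on day 34 (log2 fold change -3.56 ± 0.77, edgeR adjusted p = 0.024). FOXA3, CEBPA, NR1I2 and NR5A2 were also among those called lower. ONECUT2 and PROX1, both present in early liver progenitors, were at 118, 93.8 and 140.3 CPM on day 21 and 2.0 and 30.6 on day 34 and 23, 19.2 and 24.2 CPM on day 21 and 4.66 and 19 on day 34, and neither passed the test (edgeR adjusted p = 0.085 and 0.26). In day 34 replicate 2, PROX1 was just under the day 21 range. The list held 4, 5 and 3 calls without day 21 replicate 1, 2 or 3, and 13 and 16 without day 34 replicate 1 or 2. HNF4A reached an edgeR adjusted p of 0.099 in the least favourable of these fits, and GATA4 and GATA6 were called in all 5.

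Clotting and metabolic genes of the hepatocyte changed in part. Of 22 coagulation and complement genes 17 were tested, 3 were called lower against 7.18% of all genes and 0 higher, and the median log2 fold change was -0.78. F2, the gene of prothrombin (chr11:46719196-46739506), was at 42.3, 36.9 and 36.4 CPM on day 21 and 0.121 and 0.637 on day 34 (log2 fold change -6.63 ± 0.59, edgeR adjusted p = 0.0016), the second lowest fold change among the named decreases. F10 was at 3.65, 4.86 and 3.34 CPM on day 21 and 0.898 and 1.05 on day 34 (log2 fold change -2.01 ± 0.30, edgeR adjusted p = 0.0073). SERPINC1, the gene of antithrombin, had 34 UMIs on day 21 and 1 on day 34, a ratio of 24.1 in CPM (exact 95% interval 4.04 to 979, counting error only). Without day 21 replicate 1, 2 or 3 this list held 2 downward calls each. Without day 34 replicate 1 it had a median of -0.54, and without replicate 2 a median of -2.10. Of 32 metabolic enzymes and transporters 24 were tested, 7 were called lower and 2 higher, against 7.18% and 8.43% of all genes. ASL of the urea cycle was at 45.1, 37.1 and 43.2 CPM on day 21 and 12.6 and 19.6 on day 34 (log2 fold change -1.37 ± 0.23, edgeR adjusted p = 0.010). CYP2C8, a drug-metabolising cytochrome P450, was at 1.10, 0.725 and 1.51 CPM on day 21 and 0.170 and 0.0626 on day 34 (log2 fold change -3.27 ± 0.56, edgeR adjusted p = 0.011). OTC, ARG1, HPD and PCK1 were also among those called lower. CYP3A7, the main fetal form of the CYP3A family, went the other way at 1.71, 0.817 and 1.24 CPM on day 21 and 4.21 and 8.04 on day 34 (log2 fold change 2.28 ± 0.40, edgeR adjusted p = 0.012), as did the glucuronidation enzyme UGT2B7 at 1.53, 1.30 and 2.02 CPM on day 21 and 4.14 and 3.49 on day 34 (log2 fold change 1.24 ± 0.28, edgeR adjusted p = 0.028). ASS1, CYP3A5 and CYP27A1 had log2 fold changes of -1.36 ± 0.38, 0.67 ± 0.22 and -0.98 ± 0.30 and did not pass the test. Without day 21 replicate 1, 2 or 3 the metabolic list held 1, 1 and 0 upward and 1, 5 and 1 downward calls.

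Of 13 tested imprinted and other growth genes of fetal liver, 3 were called higher (H19, IGF2 and DLK1) and 1 lower (LIN28B), against 8.43% and 7.18% of all genes, and the median log2 fold change was 0.15. H19, a non-coding RNA, was at 284, 378 and 369 CPM on day 21 and 1503 and 711 on day 34 (log2 fold change 1.69 ± 0.32, edgeR adjusted p = 0.016). IGF2, its neighbour and a fetal growth factor, was at 49.7, 45.7 and 35.2 CPM on day 21 and 176 and 83.8 on day 34 (log2 fold change 1.58 ± 0.31, edgeR adjusted p = 0.018). Day 34 replicate 1 was the higher for both. DLK1, a Notch-family ligand of hepatoblasts and stroma, was at 79.9, 116 and 64.4 CPM on day 21 and 236 and 160.3 on day 34 (log2 fold change 1.19 ± 0.28, edgeR adjusted p = 0.032). LIN28B, which blocks maturation of let-7 microRNAs, was at 38.6, 37.2 and 45 CPM on day 21 and 17.3 and 22.7 on day 34 (log2 fold change -1.01 ± 0.19, edgeR adjusted p = 0.015). GPC3, a cell-surface proteoglycan of fetal liver, did not pass the test at 399, 415 and 383 CPM on day 21 and 346 and 203 on day 34. After removal of day 21 replicate 1 or 3 the list held 0 calls, and without replicate 2 it held 1 higher and 1 lower.

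Gut epithelial genes had the lowest median fold change of the 33 lists. Of 23 tested, 15 were called lower against 7.18% of all genes and 0 higher, 20 did not overlap in the downward direction against 25.1%, and the median log2 fold change was -4.08. CDX1 (chr5:150166778-150184558) and CDX2, the factors that set intestinal identity, were at 36.9, 20.4 and 30.7 CPM on day 21 and 0.461 and 1.18 on day 34 and 30.4, 21.3 and 25.6 CPM on day 21 and 0.182 and 2.0 on day 34. Both fell (log2 fold change -5.15 ± 0.49 and -4.54 ± 0.83, edgeR adjusted p = 0.0017 and 0.014). LGALS4, a gut lectin (chr19:38801671-38812945), was at 64.6, 40.1 and 84.9 CPM on day 21 and 0.303 and 0.918 on day 34 and had the lowest fold change among the named decreases (log2 fold change -6.67 ± 0.59, edgeR adjusted p = 0.0016). The fatty acid-binding proteins FABP1 (chr2:88122982-88128062), of liver and gut, and FABP2 (chr4:119317250-119322138), of gut, were at 1446, 1194 and 1516 CPM on day 21 and 5.57 and 66.2 on day 34 and 18.7, 6.59 and 30.0 CPM on day 21 and 0.0121 and 0.501 on day 34. Both fell (log2 fold change -5.27 ± 1.01 and -6.11 ± 1.11, edgeR adjusted p = 0.017 and 0.014), FABP2 to 0.0121 CPM, which is 1 UMI, in day 34 replicate 1.

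Of the secretory genes in this list, AGR2, a disulfide isomerase of mucus-producing cells, was at 498, 394 and 639 CPM on day 21 and 9.69 and 67.4 on day 34 (log2 fold change -3.73 ± 0.78, edgeR adjusted p = 0.022). AGR3 was at 24.7, 23.8 and 30.7 CPM on day 21 and 3.57 and 4.06 on day 34 (log2 fold change -2.79 ± 0.20, edgeR adjusted p = 0.0010). TFF1, a trefoil peptide of gastric mucus, was at 78.2, 68.7 and 71.9 CPM on day 21 and 0.679 and 7.83 on day 34 (log2 fold change -4.09 ± 0.89, edgeR adjusted p = 0.024). PHGR1 was at 117, 87.7 and 118 CPM on day 21 and 0.777 and 8.77 on day 34 (log2 fold change -4.49 ± 0.91, edgeR adjusted p = 0.020). SPINK1, a trypsin inhibitor, was at 612, 648 and 765 CPM on day 21 and 47.4 and 363 on day 34 and did not pass the test (edgeR adjusted p = 0.15). Day 34 replicate 1 was the lower library for each of these genes. On leaving out day 21 replicate 1, 2 or 3 the gut list held 5, 8 and 4 downward calls, and without day 34 replicate 1 or 2 it held 19 and 22. Without day 34 replicate 1, 2 genes of the list were called higher.

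A further 5 genes were among the 10 largest called decreases, chosen by the same rule. MTTP, which loads lipid onto apolipoprotein B (chr4:99564081-99623997), was at 104, 78.7 and 122 CPM on day 21 and 0.497 and 3.46 on day 34 (log2 fold change -5.67 ± 0.80, edgeR adjusted p = 0.0061). SLC51A, a subunit of the basolateral bile acid exporter (chr3:196211487-196243178), was at 16.4, 14.5 and 15.9 CPM on day 21 and 0.315 and 0.376 on day 34 (log2 fold change -5.49 ± 0.24, edgeR adjusted p = 0.00022), with close values within each group. GUCY2C, the guanylin receptor of enterocytes (chr12:14612632-14696599), was at 10.8, 7.47 and 12.4 CPM on day 21 and 0 and 0.511 on day 34 (log2 fold change -5.27 ± 1.04, edgeR adjusted p = 0.018). ANXA10, an annexin of gastric epithelium (chr4:168092537-168187736), was at 37.8, 18.4 and 54.3 CPM on day 21 and 0.0849 and 0.887 on day 34 (log2 fold change -6.21 ± 0.91, edgeR adjusted p = 0.0072). MMP1, a collagenase (chr11:102789401-102798160), was at 361, 210.1 and 562 CPM on day 21 and 1.19 and 18.9 on day 34 (log2 fold change -5.23 ± 1.15, edgeR adjusted p = 0.025). FABP1, FABP2, GUCY2C and MMP1 reached an edgeR adjusted p of 0.079 to 0.10 when 1 day 21 library was left out, ANXA10 reached 0.052, and F2, LGALS4, MTTP, SLC51A and CDX1 were called in all 5 such fits.

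Of 19 tested genes of simple and ductal epithelium, 3 were called higher (KRT19, MMP7 and LAMB3) and 2 lower (EPCAM and CLDN3), against 8.43% and 7.18% of all genes, with a median log2 fold change of 0.23. KRT19, a keratin of ducts and of many other epithelia, was at 1082, 908 and 953 CPM on day 21 and 1908 and 2129 on day 34 (log2 fold change 1.04 ± 0.19, edgeR adjusted p = 0.014). LAMB3, a laminin chain of epithelial basement membrane, was at 6.18, 4.66 and 5.43 CPM on day 21 and 27.4 and 18.8 on day 34 (log2 fold change 2.09 ± 0.22, edgeR adjusted p = 0.0026). MMP7 was at 0.252, 0.540 and 0.741 CPM on day 21 and 0.910 and 12.3 on day 34 (log2 fold change 3.7 ± 0.95, edgeR adjusted p = 0.040), so its increase rests on day 34 replicate 2, and without that library its log2 fold change was 0.83 and was not called. EPCAM, the pan-epithelial adhesion molecule, was at 575, 436 and 536 CPM on day 21 and 170.0 and 284 on day 34 (log2 fold change -1.18 ± 0.27, edgeR adjusted p = 0.028). The tight junction gene CLDN3 was at 35.9, 29 and 26 CPM on day 21 and 13.6 and 16.9 on day 34 (log2 fold change -0.99 ± 0.20, edgeR adjusted p = 0.020). KRT18, the simple epithelial keratin, was at 2169, 1531 and 1834 CPM on day 21 and 1051 and 1430.4 on day 34 and did not pass the test. Without any 1 of the day 21 libraries the list held 1 upward and 0 downward calls.

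Surface ectoderm is the sheet from which skin forms. Of 18 tested genes of amnion and surface ectoderm, 3 were called higher (TFAP2A, GATA3 and GRHL3) and 1 lower (HAND1), against 8.43% and 7.18% of all genes, and the median log2 fold change was 0.11. TFAP2A, a factor of surface ectoderm, was at 38, 26.7 and 42.4 CPM on day 21 and 102 and 80.9 on day 34 (log2 fold change 1.36 ± 0.23, edgeR adjusted p = 0.010). GRHL3, a factor of barrier formation, was at 1.61, 0.848 and 1.24 CPM on day 21 and 2.43 and 6.61 on day 34 (log2 fold change 1.87 ± 0.46, edgeR adjusted p = 0.036). HAND1, a factor of extraembryonic and heart mesoderm, was at 49.1, 47.4 and 41.6 CPM on day 21 and 22.9 and 16.5 on day 34 (log2 fold change -1.23 ± 0.20, edgeR adjusted p = 0.0095). The marker pair VTCN1 and GABRP was at 54, 41.2 and 48 CPM on day 21 and 35.4 and 13.7 on day 34 and at 123, 94.9 and 125 CPM on day 21 and 65.8 and 96.3 on day 34, respectively, and neither passed the test (edgeR adjusted p = 0.12 and 0.18). GATA3 lay at an edgeR adjusted p of 0.050 with a log2 fold change of 0.82 ± 0.23. In fits without day 21 replicate 1, 2 or 3, the list held 0, 1 and 1 upward and 0, 2 and 1 downward calls.

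Marker sets were then counted per cell. Each set holds 8 genes, and a cell thinned to 3000 UMIs carried a set when at least 3 of the 8 had a UMI. The basal squamous set (TP63, KRT5, KRT14, KRT15, COL17A1, S100A2, TRIM29 and DSG3) was carried by 0.0352%, 0% and 0.0361% of day 21 cells and 4.99% and 16.1% of day 34 cells. The suprabasal set (KRT1, KRT4, KRT10, KRT13, SPRR1B, KRTDAP, SBSN and IVL) was carried by 0%, 0% and 0% of day 21 cells and 1.03% and 7.6% of day 34 cells. KRT10 was abundant in every library. The median number of suprabasal markers per cell was 1 in each library, both in cells with and in cells without the mesenchymal set. The day 21 libraries held 2, 0 and 2 cells with the basal set, with exact 95% upper limits of 0.127% and 0.13% in replicates 1 and 3. They held 0 cells with the suprabasal set, which at 3 counts of the total allows shares of up to 0.0528%, 0.0582% and 0.0542%. In day 34 replicate 2, 3.19% of the 251 hepatocyte-marked cells (1.39% to 6.18%) carried the basal set and 0.398% (0.0101% to 2.20%) the suprabasal set, against 19.6% and 11.6% of simple epithelial-marked cells.

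The hepatocyte set (ALB, AFP, TTR, FGB, FGG, APOB, AMBP and AHSG) was carried by 10.5%, 6.91% and 11.7% of day 21 cells and 0.0468% and 2.23% of day 34 cells, and day 34 replicate 1 held 2 such cells. The gut set (CDX2, CDH17, LGALS4, PHGR1, MUC13, VIL1, FABP2 and TFF1) was carried by 5.81%, 3.41% and 5.75% of day 21 cells and 0.0702% and 0.453% of day 34 cells. The cycling set was carried by 34.2%, 33.6% and 38.4% of day 21 cells and 12.8% and 22.9% of day 34 cells. For these 3 sets every day 34 library lay below every day 21 library, and for both squamous sets every day 34 library lay above. The mesenchymal set was carried by 51.9%, 60.3% and 52.8% of day 21 cells and 73.8% and 37.2% of day 34 cells, with the day 34 libraries on either side of day 21. The simple epithelial set was carried by 48.2%, 28.5% and 43.1% of day 21 cells and 34.1% and 51.2% of day 34 cells and the VTCN1 and GABRP set by 16.3%, 8.44% and 15.6% of day 21 cells and 21.1% and 15.9% of day 34 cells, and both overlapped between days.

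Most squamous-marked cells sat at the threshold. Cells with exactly 3 basal markers made up 3.82% and 11.8% of cells in day 34 replicates 1 and 2, and those with exactly 3 suprabasal markers 0.913% and 6.07%. With at least 4 markers required, the basal share was 1.17% and 4.25% and the suprabasal share 0.117% and 1.54% on day 34, against 0% in each day 21 library. Without thinning, the basal share at 3 markers was 0.847%, 0.450% and 0.397% on day 21 and 25.5% and 31.6% on day 34, and the suprabasal share 0.102%, 0.0375% and 0.0318% on day 21 and 4.62% and 13.2% on day 34.

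Differences between the day 34 and day 21 mean shares were -8.55 percentage points for the hepatocyte set, -4.73 for the gut set, -17.6 for the cycling set, 10.5 for the basal and 4.32 for the suprabasal squamous set. With at least 4 markers required they were -4.69 for the hepatocyte, -2.76 for the gut, 2.71 for the basal and 0.827 for the suprabasal set. At 3 markers, each of these 5 had a two-sided exact permutation p of 0.2, the smallest that 3 libraries against 2 allow, so none can pass 0.05 in this design. The p was 1 for the mesenchymal, 0.8 for the simple epithelial and 0.4 for the VTCN1 and GABRP set, and Benjamini-Hochberg adjustment over the 8 sets could lower none of them. A set is a count of genes and not a cell type, and cells with exactly 3 mesenchymal markers made up 20.0% of thinned cells in day 21 replicate 1, those with exactly 2 a further 17.8%.

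**Figure D3:**
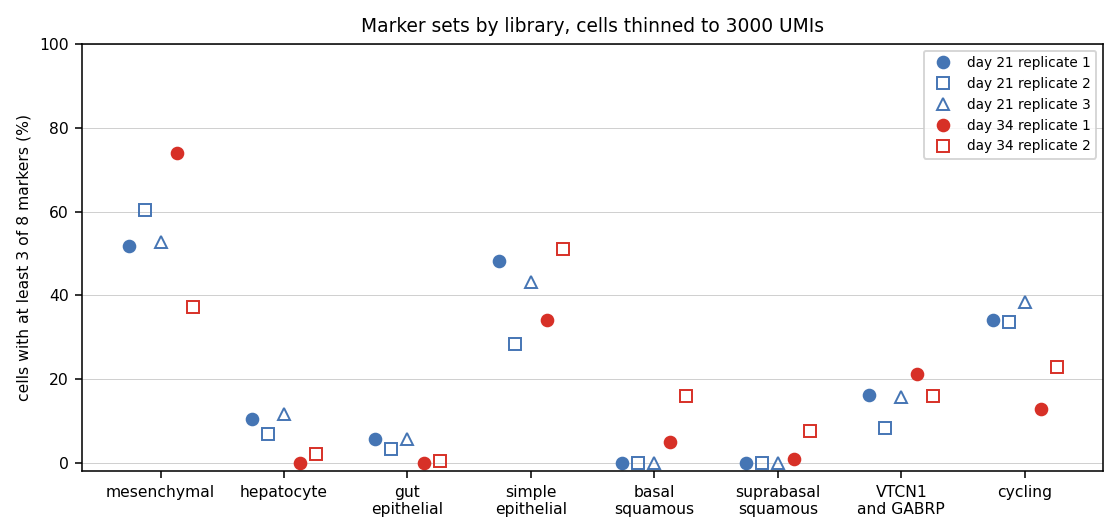
Share of cells, in percent, that carried at least 3 of 8 markers of each set after thinning to 3000 UMIs, with 1 symbol per library (day 21 blue, day 34 red). Red lies above blue for both squamous sets and below it for the hepatocyte, gut and cycling sets, and the red symbols of the mesenchymal set stand at 73.8% and 37.2%.

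Matrix genes rose in part, and most of the abundant ones followed day 34 replicate 1. Of 24 tested, 6 were called higher (COL5A1, COL12A1, COL14A1, FBN2, TNC and FBLN5) and 1 lower (FBLN1), against 8.43% and 7.18% of all genes, with a median log2 fold change of 0.99. COL12A1 and COL14A1 encode collagens that decorate fibrils. COL12A1 was at 4.53, 4.57 and 5.0 CPM on day 21 and 45.9 and 24.2 on day 34 (log2 fold change 2.90 ± 0.27, edgeR adjusted p = 0.0017). COL14A1 was at 6.89, 8.76 and 7.82 CPM on day 21 and 40.5 and 34.7 on day 34 (log2 fold change 2.26 ± 0.17, edgeR adjusted p = 0.0012). FBLN5, an elastic fibre protein, was at 1.88, 2.76 and 2.24 CPM on day 21 and 14.2 and 12 on day 34 (log2 fold change 2.51 ± 0.24, edgeR adjusted p = 0.0017), whereas FBLN1, another matrix glycoprotein, was at 356, 339 and 301 CPM on day 21 and 208 and 150.3 on day 34 (log2 fold change -0.89 ± 0.21, edgeR adjusted p = 0.030).

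The main fibrillar chain COL1A1 (chr17:50184101-50201632) was at 142, 184 and 154 CPM on day 21 and 426 and 168 on day 34, so only day 34 replicate 1 stood out, and the gene did not pass the test (log2 fold change 0.89 ± 0.36, edgeR adjusted p = 0.13). COL1A2, its partner chain, was at 255, 337 and 282 CPM on day 21 and 807 and 352 on day 34 (log2 fold change 0.99 ± 0.33, edgeR adjusted p = 0.087). COL3A1 at 706, 952 and 726 CPM on day 21 and 1628 and 707 on day 34 and the glycoprotein FN1 at 475, 621 and 454 CPM on day 21 and 1541 and 522 on day 34 also overlapped between groups and did not pass the test. LUM, a small proteoglycan, was at 447, 599 and 439 CPM on day 21 and 425 and 171 on day 34. Day 34 replicate 1 also held the larger share of mesenchymal-marked cells (73.8% against 37.2% in replicate 2), and the part of that share in these values was not tested. Without day 34 replicate 1 the list had a median of 0.05, and without replicate 2 a median of 1.51. Without day 21 replicate 1, 2 or 3 it held 4, 6 and 4 upward calls.

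Contractile genes of smooth muscle and myofibroblasts rose in part. Of 16 tested, 6 were called higher (ACTA2, TAGLN, CNN1, TPM2, CALD1 and SMTN) and 1 lower (PLN), against 8.43% and 7.18% of all genes, and the median log2 fold change was 0.97. ACTA2, smooth muscle actin and the usual mark of activated stellate cells, was at 11.2, 9.42 and 10.6 CPM on day 21 and 22.9 and 19.4 on day 34, a small difference with close values in each group (log2 fold change 1.02 ± 0.17, edgeR adjusted p = 0.010). TAGLN was at 122, 87.6 and 121 CPM on day 21 and 186 and 853 on day 34 (log2 fold change 2.24 ± 0.54, edgeR adjusted p = 0.033), and here day 34 replicate 2 was far above all other libraries. Without that library its log2 fold change was 0.74 and was called, and it was not called without any 1 of the day 21 libraries. CALD1, which binds actin, was at 377, 371 and 503 CPM on day 21 and 918 and 942 on day 34 (log2 fold change 1.16 ± 0.20, edgeR adjusted p = 0.012). CNN1 was at 3.17, 3.15 and 3.21 CPM on day 21 and 6.93 and 10.8 on day 34 and SMTN at 11.1, 11.5 and 10.2 CPM on day 21 and 22.9 and 21.6 on day 34 (log2 fold change 1.48 ± 0.25 and 1.02 ± 0.16, edgeR adjusted p = 0.010 and 0.0080). TPM2 rose by 0.92 (edgeR adjusted p = 0.049). PLN, a regulator of the calcium pump of muscle, was at 0.916, 2.05 and 1.29 CPM on day 21 and 0.206 and 0.230 on day 34 (log2 fold change -2.69 ± 0.45, edgeR adjusted p = 0.011). The list held 0, 3 and 1 upward calls without day 21 replicate 1, 2 or 3, and 9 and 7 without day 34 replicate 1 or 2.

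Of 22 tested genes of mesenchymal and stellate cell identity, 5 were called higher (PDGFRB, TWIST2, PRRX1, FOXF2 and THY1) and 2 lower (RGS5 and LRAT), against 8.43% and 7.18% of all genes, with a median log2 fold change of 0.53. TWIST2, a mesenchymal transcription factor, was at 14, 23.1 and 14.1 CPM on day 21 and 79 and 53.9 on day 34 (log2 fold change 1.96 ± 0.28, edgeR adjusted p = 0.0061). PRRX1, another such factor, was at 61.4, 83.9 and 69.4 CPM on day 21 and 204 and 105 on day 34 (log2 fold change 1.11 ± 0.29, edgeR adjusted p = 0.040), and PDGFRB, a platelet-derived growth factor receptor, at 16.7, 23.7 and 18.4 CPM on day 21 and 70.5 and 29.8 on day 34 (log2 fold change 1.36 ± 0.34, edgeR adjusted p = 0.038). Both were highest in day 34 replicate 1, and without it their log2 fold changes were 0.56 and 0.61 and were not called. The surface protein THY1 was at 39.8, 49.4 and 37.5 CPM on day 21 and 84.5 and 67.9 on day 34 (log2 fold change 0.85 ± 0.19, edgeR adjusted p = 0.025). LRAT, the enzyme by which stellate cells store vitamin A, was at 3.01, 3.36 and 3.57 CPM on day 21 and 0.704 and 0.334 on day 34 (log2 fold change -2.68 ± 0.39, edgeR adjusted p = 0.0068). RGS5, a pericyte gene, was at 28.8, 35.1 and 39 CPM on day 21 and 8.61 and 4.88 on day 34 (log2 fold change -2.35 ± 0.29, edgeR adjusted p = 0.0038). VIM, the mesenchymal intermediate filament, was at 1484, 1916 and 1604 CPM on day 21 and 3735 and 1469 on day 34 and did not pass the test. Without day 34 replicate 1 the list's median log2 fold change was -0.28, and without replicate 2 it was 0.95. After removal of day 21 replicate 1, 2 or 3 the list held 1, 2 and 0 upward and 2, 2 and 1 downward calls.

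HOX genes, which record position along the body axis, gave no common direction. Of 37 tested, 3 were called higher (HOXA10, HOXC11 and HOXC13) and 8 lower (HOXA2, HOXA3, HOXB1, HOXB5, HOXB6, HOXB8, HOXB9 and HOXC5), against 8.43% and 7.18% of all genes, with a median log2 fold change of 0.00. HOXA10 was at 14.1, 19.1 and 14.6 CPM on day 21 and 45.1 and 24.9 on day 34 (log2 fold change 1.14 ± 0.27, edgeR adjusted p = 0.032). HOXC11 was at 0.183, 0.139 and 0.230 CPM on day 21 and 1.04 and 1.23 on day 34 (log2 fold change 2.61 ± 0.34, edgeR adjusted p = 0.0049). HOXB8 was at 12.4, 12 and 13 CPM on day 21 and 3.60 and 5.75 on day 34 (log2 fold change -1.41 ± 0.25, edgeR adjusted p = 0.012), and HOXB6 fell by 0.80 on the log2 scale (edgeR adjusted p = 0.036). HOXB1 had 48 UMIs on day 21 and 1 on day 34, a ratio of 34.0 in CPM (exact 95% interval 5.82 to 1371, counting error only). On leaving out day 21 replicate 1, 2 or 3 the list held 1 upward call each and 1, 2 and 1 downward.

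**Figure D4:**
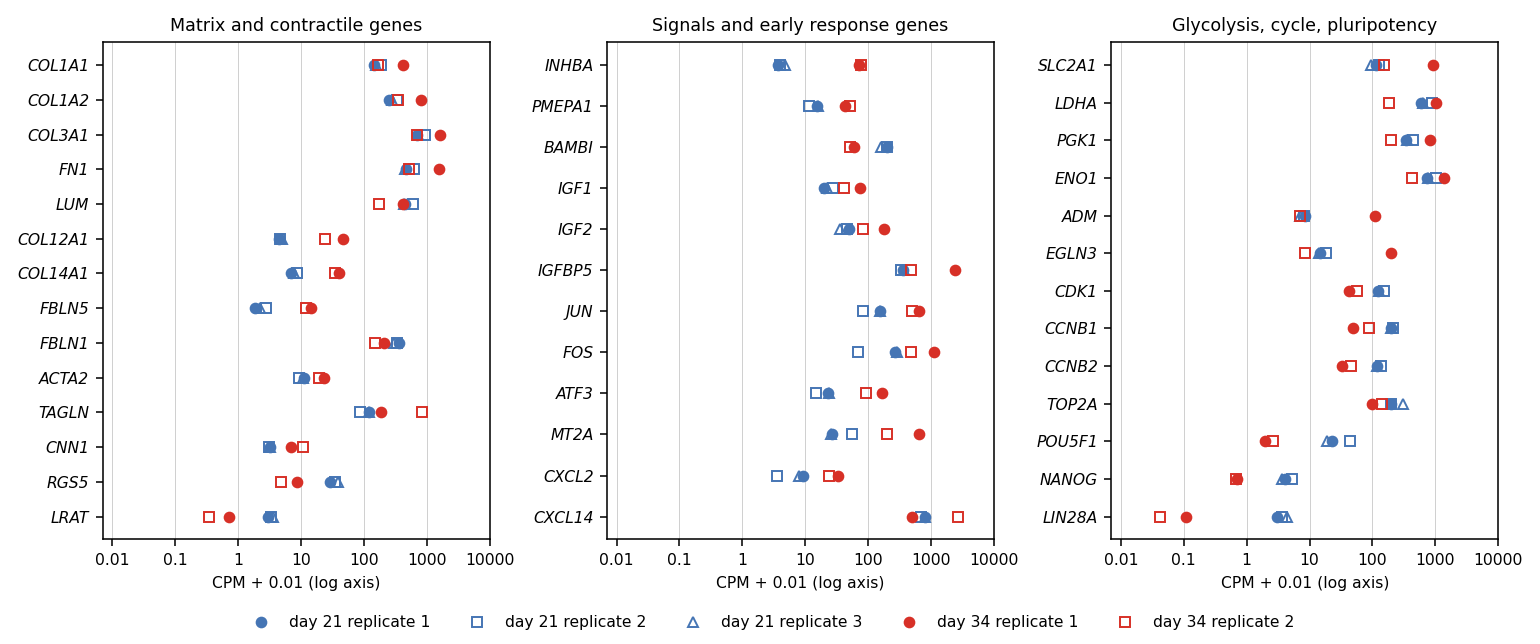
Level of matrix and contractile genes (left), signals and early response genes (middle) and glycolysis, cell cycle and pluripotency genes (right) in each library, as CPM plus 0.01 on a log axis, with day 21 in blue and day 34 in red. Both red symbols leave the blue ones for COL12A1, INHBA and CCNB2, while for COL1A1, ADM and EGLN3 only day 34 replicate 1 lies above them.

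Genes of S phase and mitosis fell in part. Of 22 tested, 10 were called lower against 7.18% of all genes and 0 higher, 18 did not overlap in the downward direction against 25.1% of all genes, and the median log2 fold change was -0.90. CDK1, the kinase that drives entry into mitosis, was at 120.5, 154 and 126 CPM on day 21 and 42.9 and 56 on day 34 (log2 fold change -1.43 ± 0.21, edgeR adjusted p = 0.0066). Its cyclins CCNB1 and CCNB2 were at 197, 209.9 and 200.4 CPM on day 21 and 48.7 and 87.4 on day 34 and 120.0, 136 and 116 CPM on day 21 and 32.4 and 45.7 on day 34, and fell by 1.57 and 1.67 on the log2 scale (edgeR adjusted p = 0.011 and 0.0040). PLK1, a mitotic kinase, was at 54.3, 50.7 and 55.5 CPM on day 21 and 15.9 and 22.2 on day 34 (log2 fold change -1.49 ± 0.19, edgeR adjusted p = 0.0047). UBE2C, of the anaphase-promoting complex pathway, was at 296, 374 and 272 CPM on day 21 and 113 and 156 on day 34 (log2 fold change -1.22 ± 0.23, edgeR adjusted p = 0.016). TYMS, the thymidylate synthase of S phase, was at 198, 203 and 201 CPM on day 21 and 95.7 and 122 on day 34 (log2 fold change -0.88 ± 0.18, edgeR adjusted p = 0.019). TOP2A and CENPF did not pass the test with log2 fold changes of -0.97 ± 0.27 and -0.92 ± 0.27 (edgeR adjusted p = 0.053 and 0.061). The list held 3, 6 and 3 calls without day 21 replicate 1, 2 or 3, and 10 and 19 without day 34 replicate 1 or 2.

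Of 15 inhibitors of cyclin-dependent kinases and growth arrest genes, 5 were called higher (CDKN2B, CDKN2C, CDKN2D, GADD45B and GADD45G) and 1 lower (CDKN2A), against 8.43% and 7.18% of all genes. The neighbours CDKN2A and CDKN2B, both INK4 inhibitors, went opposite ways. CDKN2B was at 6.38, 4.35 and 7.06 CPM on day 21 and 13.3 and 24.4 on day 34 (log2 fold change 1.67 ± 0.31, edgeR adjusted p = 0.015). CDKN2A was at 7.92, 10.8 and 6.33 CPM on day 21 and 1.33 and 2.37 on day 34 (log2 fold change -2.17 ± 0.36, edgeR adjusted p = 0.010). GADD45B, a stress-induced growth arrest gene, was at 31.9, 17 and 22.9 CPM on day 21 and 134 and 104 on day 34 (log2 fold change 2.31 ± 0.27, edgeR adjusted p = 0.0034). The list held 1, 2 and 1 upward calls without day 21 replicate 1, 2 or 3. CDKN2B and CDKN2A reached edgeR adjusted p values of 0.070 and 0.053 in these fits, and GADD45B was called in all 5.

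Most transcripts of pluripotent and germ cells, present at low levels on day 21, fell. Of 15 tested, 10 were called lower against 7.18% of all genes and 1 higher (SOX15), and the median log2 fold change was -1.95. POU5F1, the factor OCT4, was at 22.6, 43.4 and 19.2 CPM on day 21 and 1.95 and 2.65 on day 34 (log2 fold change -3.62 ± 0.42, edgeR adjusted p = 0.0032). NANOG was at 4.03, 5.17 and 3.64 CPM on day 21 and 0.692 and 0.657 on day 34 (log2 fold change -2.66 ± 0.29, edgeR adjusted p = 0.0028). LIN28A, of the same gene family as LIN28B, was at 2.99, 3.7 and 4.38 CPM on day 21 and 0.0971 and 0.0313 on day 34 (log2 fold change -5.85 ± 0.51, edgeR adjusted p = 0.0015). SOX17, of endoderm and of human germ cells, was at 7.59, 7.94 and 5.67 CPM on day 21 and 0.704 and 0.720 on day 34 (log2 fold change -3.31 ± 0.28, edgeR adjusted p = 0.0015). UTF1 and the germ cell gene NANOS3 fell by 3.36 and 1.63 on the log2 scale (edgeR adjusted p = 0.0051 and 0.016). Few cells held POU5F1, with a UMI in 1.34%, 2.19% and 1.12% of day 21 cells and 0.187% and 0.204% of day 34 cells after thinning. In fits without day 21 replicate 1, 2 or 3 the list held 5, 7 and 5 downward calls. POU5F1, NANOG, LIN28A, UTF1 and SOX17 were called in all 5 leave-one-out fits.

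Among TGF-beta and BMP signals and targets, 7 of 24 were called higher (among them TGFBI, CTGF, PMEPA1, ID4, INHBA and GREM1) and 1 lower (BAMBI), against 8.43% and 7.18% of all genes, and the median log2 fold change was 0.32. INHBA, whose product forms activin A (chr7:41667168-41705834), was at 3.73, 3.96 and 4.72 CPM on day 21 and 72.7 and 75.7 on day 34, with both groups tight and far apart (log2 fold change 4.16 ± 0.17, edgeR adjusted p = 0.00022). PMEPA1, a feedback target of TGF-beta, was at 15.6, 11.6 and 16.2 CPM on day 21 and 42.9 and 51.5 on day 34 (log2 fold change 1.71 ± 0.20, edgeR adjusted p = 0.0031). BAMBI, a decoy receptor of the family, was at 198, 199 and 160.3 CPM on day 21 and 59.7 and 50.6 on day 34 (log2 fold change -1.75 ± 0.19, edgeR adjusted p = 0.0027). INHBA UMIs were found in 1.48%, 1.14% and 1.77% of day 21 cells and 17.2% and 16.6% of day 34 cells after thinning, against 0 of 597, 0 of 356 and 2 of 645 hepatocyte-marked cells on day 21 and 3.98% of 251 in day 34 replicate 2 (1.93% to 7.20%). Without day 21 replicate 1, 2 or 3 the list held 5, 5 and 2 upward calls and 1 downward call each.

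Of 10 tested genes of the IGF system, 4 were called higher (IGF1, IGF1R, IGF2R and IGFBP6) and 0 lower, against 8.43% and 7.18% of all genes. The median log2 fold change was 1.08. The ligand IGF2, called higher (log2 fold change 1.58), was counted with the fetal growth genes above. IGFBP3 was counted with the amnion and surface ectoderm genes and did not pass the test (edgeR adjusted p = 0.058). The ligand IGF1 was at 19.8, 27.3 and 22.1 CPM on day 21 and 73 and 41.2 on day 34 (log2 fold change 1.31 ± 0.26, edgeR adjusted p = 0.019), and its receptor IGF1R at 31.4, 32.5 and 33.3 CPM on day 21 and 75.8 and 50.9 on day 34 (log2 fold change 0.97 ± 0.19, edgeR adjusted p = 0.019). The clearing receptor IGF2R was at 49.3, 41.2 and 50.4 CPM on day 21 and 97.8 and 71.9 on day 34 (log2 fold change 0.85 ± 0.19, edgeR adjusted p = 0.026). The binding protein IGFBP6 was at 106, 83 and 81.6 CPM on day 21 and 149 and 236 on day 34 (log2 fold change 1.10 ± 0.24, edgeR adjusted p = 0.023). IGFBP5 was at 362, 337 and 372 CPM on day 21 and 2382 and 471 on day 34 and IGFBP2 at 673, 769 and 508 CPM on day 21 and 2187 and 698 on day 34, both highest in day 34 replicate 1, and neither passed the test (edgeR adjusted p = 0.051 and 0.12). After removal of day 21 replicate 1 or 3 the list held 0 calls, and without replicate 2 it held 2.

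Of 20 tested chemokines and NF-kB targets, 8 were called higher (CXCL1, CXCL2, CXCL8, CCL2, IL1A, IL1B, TNFAIP3 and BIRC3) and 0 lower, against 8.43% and 7.18% of all genes. The median log2 fold change was 1.51. The neutrophil chemokine CXCL2 was at 9.34, 3.49 and 7.87 CPM on day 21 and 33.4 and 23.4 on day 34 (log2 fold change 2.04 ± 0.39, edgeR adjusted p = 0.016). CCL2, which draws monocytes, was at 6.14, 10.3 and 8.58 CPM on day 21 and 31.4 and 15.2 on day 34 (log2 fold change 1.48 ± 0.34, edgeR adjusted p = 0.028). TNFAIP3, a feedback inhibitor of NF-kB, was at 5.62, 5.94 and 5.94 CPM on day 21 and 35.4 and 17.2 on day 34 (log2 fold change 2.17 ± 0.29, edgeR adjusted p = 0.0051). The interleukin-1 genes IL1A and IL1B stayed low, at 0.355, 0.416 and 0.345 CPM on day 21 and 2.14 and 1.45 on day 34 and 0.137, 0.0925 and 0.141 CPM on day 21 and 1.14 and 0.814 on day 34, and rose by 2.27 and 2.95 (edgeR adjusted p = 0.0060 and 0.0040). NFKBIA, the NF-kB inhibitor, was at 79, 74.3 and 70.6 CPM on day 21 and 139 and 96.3 on day 34 and did not pass the test. CXCL14 was at 813, 702 and 786 CPM on day 21 and 494 and 2660.2 on day 34, so the day 34 libraries lay on either side of day 21, and its log2 fold change was 1.80 without day 34 replicate 1 and -0.65 without replicate 2. On leaving out day 21 replicate 1, 2 or 3 the list held 4, 5 and 2 upward calls.

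Of 25 tested interferon-stimulated and MHC class I genes, 4 were called higher (IFI6, ISG15, HLA-E and NLRC5) against 8.43% of all genes, 0 were called lower, and the median log2 fold change was -0.02. ISG15, a ubiquitin-like protein induced by interferon, was at 52.7, 41.2 and 41.1 CPM on day 21 and 87.5 and 133 on day 34 (log2 fold change 1.30 ± 0.22, edgeR adjusted p = 0.012). HLA-E, a class I molecule read by natural killer cells, was at 29.6, 24.5 and 25.9 CPM on day 21 and 69.3 and 48.1 on day 34 (log2 fold change 1.14 ± 0.20, edgeR adjusted p = 0.012). B2M, the light chain of class I, was at 558, 667 and 604 CPM on day 21 and 463 and 409.7 on day 34 and did not pass the test. In fits without day 21 replicate 1, 2 or 3 the list held 1, 0 and 0 calls.

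Immediate early genes, which cells induce within minutes of growth signals or stress, rose in part. Of 19 tested, 11 were called higher against 8.43% of all genes and 0 lower, 16 did not overlap in the upward direction against 24.5%, and the median log2 fold change was 1.85. JUN was at 154, 81.8 and 154 CPM on day 21 and 646 and 489.8 on day 34 (log2 fold change 2.13 ± 0.30, edgeR adjusted p = 0.0063). ATF3 was at 23.3, 14.8 and 23.5 CPM on day 21 and 167 and 92.2 on day 34 (log2 fold change 2.66 ± 0.31, edgeR adjusted p = 0.0032). IER3 was at 84.3, 45.7 and 68.5 CPM on day 21 and 270.4 and 206 on day 34 (log2 fold change 1.85 ± 0.27, edgeR adjusted p = 0.0072), KLF6 at 124, 64 and 138 CPM on day 21 and 436 and 377 on day 34 (log2 fold change 1.90 ± 0.32, edgeR adjusted p = 0.010) and EGR1 at 85.1, 31.6 and 108 CPM on day 21 and 319 and 219.8 on day 34 (log2 fold change 1.85 ± 0.46, edgeR adjusted p = 0.036). FOS was at 272, 68 and 287 CPM on day 21 and 1099.8 and 481 on day 34 and IER2 at 390.4, 131 and 342 CPM on day 21 and 719 and 557 on day 34, wide ranges within day 21, and neither passed the test (edgeR adjusted p = 0.070 and 0.11). Day 21 replicate 2 was the lowest library for each of these genes. The day 34 organoids had the longer trypsin treatment, and the part of dissociation in these values was not tested. Without day 21 replicate 1, 2 or 3 the list held 3, 9 and 3 calls, and JUN and ATF3 were called in all 5 leave-one-out fits.

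Of 14 tested heat shock and metallothionein genes, 3 were called higher (HSPB1, MT1X and MT2A) and 0 lower, against 8.43% and 7.18% of all genes. The median log2 fold change was 0.43. MT2A, a metal-binding protein, was at 26.4, 55.2 and 25.3 CPM on day 21 and 641 and 203 on day 34 (log2 fold change 3.57 ± 0.54, edgeR adjusted p = 0.0077). MT1X was at 4.45, 8.76 and 4.78 CPM on day 21 and 76.3 and 37.3 on day 34 (log2 fold change 3.25 ± 0.39, edgeR adjusted p = 0.0036), and is uncertain because the MT1 genes are near-identical copies. HSPB1, a small heat shock protein, was at 144, 183 and 168 CPM on day 21 and 254 and 496 on day 34 (log2 fold change 1.19 ± 0.28, edgeR adjusted p = 0.033). The chaperone HSPA8 was at 635, 517 and 618 CPM on day 21 and 328 and 499.8 on day 34 without passing the test. Genes of the endoplasmic reticulum and integrated stress responses fell in part, with a median of -0.59. Of 18, 7 were called lower (CHAC1, SESN2, PSAT1, PHGDH, XBP1, HERPUD1 and DNAJB9) and 0 higher, against 7.18% and 8.43% of all genes. PSAT1 and PHGDH, enzymes of serine synthesis, were at 202, 223 and 174 CPM on day 21 and 48.1 and 66.4 on day 34 and at 386, 422 and 346 CPM on day 21 and 137 and 233 on day 34 (log2 fold change -1.80 ± 0.22 and -1.06 ± 0.26, edgeR adjusted p = 0.0037 and 0.035). XBP1, a factor of secretory cells, was at 244, 231 and 238 CPM on day 21 and 77.5 and 107 on day 34 (log2 fold change -1.36 ± 0.20, edgeR adjusted p = 0.0069). CHAC1, a glutathione-degrading enzyme, fell by 1.46 on the log2 scale (edgeR adjusted p = 0.0099). HSPA5, the main chaperone of the compartment, was at 443, 439 and 478 CPM on day 21 and 295 and 383 on day 34 and did not pass the test. After removal of day 21 replicate 1, 2 or 3 this list held 1, 3 and 3 downward calls, and the heat shock list 2, 2 and 1 upward calls.

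Hypoxia and glycolysis genes separated the day 34 libraries from each other rather than the days. Of 18 tested, 1 was called higher (SLC2A1) and 0 lower, against 8.43% and 7.18% of all genes. The median log2 fold change was 0.72. SLC2A1, the glucose transporter GLUT1, was at 113, 128 and 94.2 CPM on day 21 and 901 and 151 on day 34 (log2 fold change 2.24 ± 0.61, edgeR adjusted p = 0.048), and without day 34 replicate 1 its log2 fold change was 0.44 and was not called. ADM, a vasodilator peptide induced by hypoxia, was at 8.54, 8.05 and 7.13 CPM on day 21 and 111 and 6.98 on day 34, and EGLN3, a prolyl hydroxylase of the hypoxia response, at 14.4, 18.6 and 14.3 CPM on day 21 and 196 and 8.60 on day 34. In both, day 34 replicate 1 stood far above every other library and replicate 2 lay below the day 21 range. The glycolytic enzymes showed the same order, with LDHA at 589.7, 880.4 and 643 CPM on day 21 and 1023 and 180.4 on day 34, PGK1 at 342, 449 and 348 CPM on day 21 and 809.9 and 196 on day 34 and ENO1 at 734, 1008 and 757 CPM on day 21 and 1352 and 419.9 on day 34. Without day 34 replicate 1 the list had a median of -0.91 with 0 upward and 10 downward calls, and without replicate 2 a median of 1.61 with 14 upward and 0 downward calls. The log2 fold change of LDHA was -1.96 in the first of these and 0.52 in the second.

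Of 22 genes of cholesterol and fatty acid synthesis, 2 were called lower (FDFT1 and DHCR7), near the 7.18% of all genes, 0 were called higher, and the median log2 fold change was -0.28. FDFT1, squalene synthase, was at 279.8, 276 and 316 CPM on day 21 and 136 and 174 on day 34 (log2 fold change -0.91 ± 0.19, edgeR adjusted p = 0.021). DHCR7, which makes cholesterol in the last step, was at 124, 114 and 102 CPM on day 21 and 59 and 67.6 on day 34 (log2 fold change -0.84 ± 0.17, edgeR adjusted p = 0.020). FDPS did not pass the test with a log2 fold change of -0.67 ± 0.21. Of 23 tested genes of fatty acid oxidation and lipid droplets, 6 were called lower (CIDEB, DGAT1, DGAT2, MTTP, PPARA and PPARG) and 0 higher. This stands against 7.18% and 8.43% of all genes, and the median was -0.37. PPARG, a lipid-sensing nuclear receptor, was at 45.5, 34.2 and 42.6 CPM on day 21 and 6.54 and 10.7 on day 34 (log2 fold change -2.24 ± 0.26, edgeR adjusted p = 0.0034). DGAT1, which completes triglycerides, was at 34.9, 27.4 and 43.8 CPM on day 21 and 13.1 and 17.3 on day 34 (log2 fold change -1.22 ± 0.24, edgeR adjusted p = 0.019). Without any 1 of the day 21 libraries the synthesis list held 0 calls, and the droplet list held 2, 5 and 2 without replicate 1, 2 or 3. PPARG was called in all 5 leave-one-out fits.

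Lists for other cell types were examined as well, each against 8.43% of all genes called higher and 7.18% called lower. Of 11 tested neural genes, 2 were called higher (STMN2 and MAP2, both of which act on microtubules). STMN2 was at 3.39, 4.84 and 3.44 CPM on day 21 and 50.3 and 6.50 on day 34 (log2 fold change 2.87 ± 0.70, edgeR adjusted p = 0.034), with day 34 replicate 1 far above replicate 2. MAP2 was at 3.85, 3.76 and 4.12 CPM on day 21 and 14.8 and 13 on day 34 (log2 fold change 1.83 ± 0.18, edgeR adjusted p = 0.0019). Of 12 tested muscle, cartilage and heart genes, RUNX2, a bone factor, and TNNT1, a troponin, were called higher with log2 fold changes of 1.99 ± 0.42 and 2.29 ± 0.39, and COL2A1, the cartilage collagen, and ACTC1, heart actin, lower with -2.03 ± 0.19 and -2.28 ± 0.34 (edgeR adjusted p = 0.022, 0.011, 0.0018 and 0.0072). COL2A1 was at 52.7, 45.5 and 57.7 CPM on day 21 and 11.4 and 14.1 on day 34. Of the 5 fits with 1 library left out, MAP2 and COL2A1 were called in 5, ACTC1 in 4, RUNX2 and TNNT1 in 3 and STMN2 in 1, and the log2 fold change of STMN2 was 0.75 without day 34 replicate 1. Of 20 blood and immune genes 5 were tested, and FCER1G alone was called lower (log2 fold change -2.57 ± 0.44, edgeR adjusted p = 0.011). The complement gene C1QA of macrophages, the B cell gene MS4A1 and the embryonic globin HBE1 had no UMI in any of the 5 libraries, nor did STAB2 of liver sinusoids, a member of the endothelial list. LYZ, which gut and mucous epithelia also make, was at 164, 89.5 and 156 CPM on day 21 and 1.86 and 33.4 on day 34 and did not pass the test. Of 9 tested endothelial genes, ERG was called higher (log2 fold change 1.22 ± 0.32, edgeR adjusted p = 0.043) and PECAM1 lower (log2 fold change -2.93 ± 0.61, edgeR adjusted p = 0.022). PECAM1 stood at 0.435, 0.262 and 0.626 CPM on day 21 and 0.0849 and 0.0313 on day 34, near 0 throughout. Among the same fits, FCER1G and PECAM1 were called in 3 and ERG in 1.

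Of all genes, 8.43% were called higher and 7.18% lower. Of 13 tested members of the mesothelium, kidney, lung and endocrine list, 5 were called higher and 0 lower. They were MSLN, at 1.05, 0.910 and 0.984 CPM on day 21 and 7.44 and 2.11 on day 34, the pituitary and placental hormone subunit CGA, at 0.149, 0.0463 and 0.179 CPM on day 21 and 0.704 and 2.16 on day 34, the granin CHGB, at 0.126, 0.0617 and 0.192 CPM on day 21 and 0.413 and 0.449 on day 34, the lung surfactant gene SFTPB and KRT6C, a squamous keratin. SFTPB had 1 UMI on day 21 and 165 on day 34, a ratio of 233 in CPM (exact 95% interval 41.2 to 9253, counting error only). KRT6C had 2 and 337 UMIs, a ratio of 238 (65.3 to 1972), and the split of reads between it and its near-identical copies KRT6A and KRT6B is uncertain. As a squamous keratin it does not mark the cell types of this list, though it counts among the 13 tested and the 5 called. Of 5 tested pigment and lens genes, CRYAB, a small heat shock protein of lens and muscle, was at 0.607, 0.756 and 0.907 CPM on day 21 and 7.95 and 4.97 on day 34 (log2 fold change 3.09 ± 0.32, edgeR adjusted p = 0.0021). RPE65 was at 0.0343, 0 and 0.0128 CPM on day 21 and 0.170 and 0.146 on day 34, the other call. SFTPB, KRT6C and CRYAB were called in all 5 leave-one-out fits, CGA in 3, and MSLN, CHGB and RPE65 in 2. The log2 fold change of MSLN was 1.10 without day 34 replicate 1. Summed over each list in CPM without TMM scaling, day 21 and day 34 libraries held 33.7 to 39.1 and 53.2 to 126 CPM of neural, 7.68 to 11 and 10.0 to 32.0 CPM of endothelial, and 91.2 to 169 and 5.50 to 36.7 CPM of blood and immune genes. LYZ made up most of the last sum in every library but day 34 replicate 1.

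Counts were next summed separately over cells with and without the mesenchymal set, to see the differences within narrower sets of cells. In cells with the set (2923 to 4189 per library), 3274 of 19199 genes were called (17.1%, with 10.2% higher and 6.88% lower). In the others (1117 to 7071 cells per library), 4285 of 20137 were called (21.3%, with 10.9% higher and 10.4% lower). The 8 marker genes themselves were left out of these counts. Median mesenchymal markers per cell were 4 in the first set and 1 to 2 in the others, so the split is one of degree. The difference between the fold changes of the 2 sets was not tested.

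In cells with the mesenchymal set, 21 of 21 tested basal squamous genes were called higher (median log2 fold change 4.32), against 10.2% of all genes. In the others 21 of 22 were called higher (4.06), against 10.9% of all genes. KRT5 was at 6.75, 1.96 and 5.62 CPM on day 21 and 169.8 and 445 on day 34 within the mesenchymal-marked cells (log2 fold change 6.0 ± 0.55, edgeR adjusted p = 0.00053), and at 2.82, 0.653 and 1.37 CPM on day 21 and 414 and 915 on day 34 in the others (log2 fold change 8.64 ± 0.65, edgeR adjusted p = 0.00034). Of mesenchymal-marked cells, 4.0% in day 34 replicate 1 and 10.5% in replicate 2 carried the basal squamous set as well. The suprabasal list had 14 of 19 called higher in mesenchymal-marked cells and 22 of 24 in the others, with SPRR1B at 6.05 ± 0.97 and 10.45 ± 0.47. The part of doublets and free RNA in these values was not tested.

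Hepatocyte and gut lists held more calls outside the mesenchymal-marked cells. Of all genes, 10.4% were called lower in the other cells and 6.88% in mesenchymal-marked cells. Hepatocyte transcription factors had 13 of 17 called lower in the other cells (median -2.51) and 2 of 16 in mesenchymal-marked cells (-0.03). Secreted hepatocyte proteins had 13 of 20 (-2.56) and 1 of 18 (-0.67), and gut genes 19 of 23 (-3.94) and 3 of 18 (-1.36). The 1 of 18 is near the share of all genes. AFP was at 634, 660.1 and 828 CPM on day 21 and 10.3 and 72.3 on day 34 in the other cells and fell there (log2 fold change -4.09 ± 0.76, edgeR adjusted p = 0.0088). HNF4A fell in the other cells (log2 fold change -3.75 ± 0.45, edgeR adjusted p = 0.0016), and in mesenchymal-marked cells it stayed near 1 CPM or below (0.995, 1.61 and 1.17 CPM on day 21 and 0.0658 and 1.19 on day 34).

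Matrix and contractile genes were called in both sets. Of all genes, 10.2% were called higher and 6.88% lower in marked cells, and 10.9% and 10.4% in the others. Contractile genes had 6 of 16 called higher and 1 lower in marked cells, and 4 of 15 higher and 1 lower in the others. In the others 7 of 18 matrix genes were called higher and 1 lower. In mesenchymal-marked cells 8 of 18 matrix genes were called higher and 1 lower, with COL12A1 at 5.27, 5.35 and 6.63 CPM on day 21 and 52.5 and 46.8 on day 34, where both day 34 libraries were close to each other (log2 fold change 3.11 ± 0.18, edgeR adjusted p = 9.28e-05). COL14A1 and FBLN5 rose there too, by 2.03 and 2.68. ACTA2 rose in mesenchymal-marked cells (log2 fold change 1.12 ± 0.17, edgeR adjusted p = 0.0041) and did not pass the test in the others (log2 fold change 0.31 ± 0.27, edgeR adjusted p = 0.46). TWIST2 was at 26.1, 32.3 and 25.7 CPM on day 21 and 101 and 124 on day 34 in the marked cells (log2 fold change 2.01 ± 0.18, edgeR adjusted p = 0.00049), and at 4.98, 13.1 and 5.03 CPM on day 21 and 17.1 and 8.90 on day 34 in the others (log2 fold change 0.75 ± 0.47, edgeR adjusted p = 0.29). LRAT did not pass the test in the marked cells, where it was at 0.699, 0.327 and 0.807 CPM on day 21 and 0.822 and 0.145 on day 34, while it fell in the others (log2 fold change -3.74 ± 0.35, edgeR adjusted p = 0.00062). INHBA rose in both (log2 fold change 3.87 ± 0.25, edgeR adjusted p = 0.00011 and log2 fold change 4.95 ± 0.20, edgeR adjusted p = 4.96e-05).

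Cell cycle and early response genes were called in both sets, in which 10.2% and 10.9% of all genes were called higher and 6.88% and 10.4% lower. The S phase and mitosis list had 10 of 22 called lower in marked cells and 12 of 22 in the others, with CDK1 at -1.53 ± 0.19 and -1.42 ± 0.27. Immediate early genes had 13 of 19 called higher and 0 lower in marked cells and 11 of 19 higher and 1 lower in the others, with ATF3 at 2.22 ± 0.33 and 3.26 ± 0.39. Hypoxia and glycolysis genes had 8 of 18 called higher in marked cells and 2 of 18 in the others, the latter near the share of all genes. ADM was at 3.55, 2.88 and 3.71 CPM on day 21 and 76.9 and 4.48 on day 34 in the marked cells, again high in day 34 replicate 1 alone (log2 fold change 3.59 ± 0.84, edgeR adjusted p = 0.021). Pluripotency genes had 4 of 14 called lower and 2 higher in marked cells and 12 of 15 lower in the others.

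**Figure D5:**
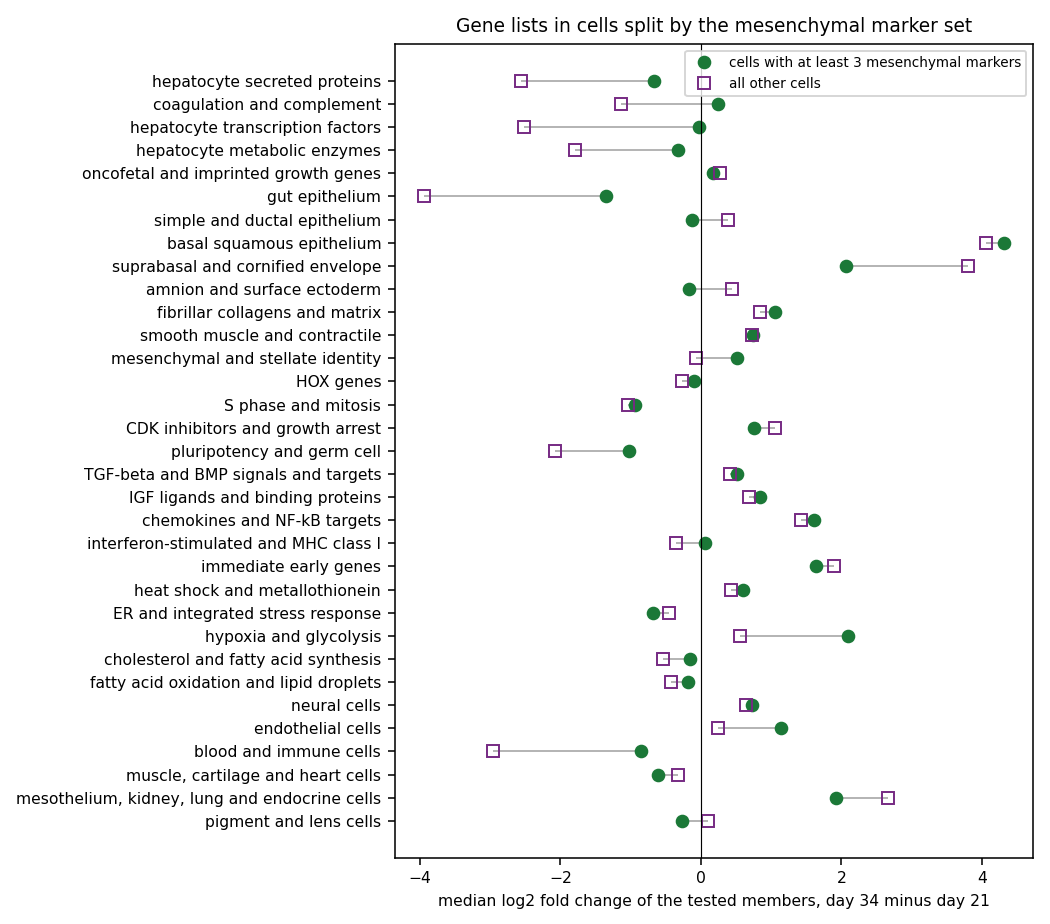
Median log2 fold change (day 34 over day 21) of the tested members of each gene list in cells with at least 3 mesenchymal markers (green circles) and in all other cells (purple squares), joined by a line. The hepatocyte and gut medians lie further below 0 in the other cells, and both basal squamous medians lie above 4.

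The untreated shaker organoids of the series, 2 libraries of day 25 with the longer trypsin treatment, are given beside these values without a comparison, since their culture, gene list and software version differ. They held 68.2 and 36 CPM of KRT5, 149.9 and 28.8 CPM of KRT17, 1.04 and 0.675 CPM of TP63 and 23.3 and 10.3 CPM of KRT13, in plain CPM of kept cells without TMM scaling. AFP stood at 2352 and 2219.7 CPM, ALB at 35.9 and 20.0 CPM, FABP1 at 379.6 and 1545 CPM, COL1A1 at 1380.4 and 763 CPM and INHBA at 76.3 and 26.7 CPM.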

How the data were processed

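Single-cell RNA-seq was measured in 5 libraries of dissociated organoids. The authors deposited, per sample, filtered matrices of raw UMI counts per gene and barcode. The submitters' processing notes name bcl2fastq, Cell Ranger 3.0.2, Scanpy and GRCh38, and no further step is given in the sources used here. Barcodes with under 500 detected genes or over 20% mitochondrial counts were left out (4.33% to 27.5% per library). UMIs were then summed per library and tested with edgeR 4.0.16 in R 4.3.3 (TMM scaling, filterByExpr, quasi-likelihood test, Benjamini-Hochberg adjustment, threshold 0.05). The standard error is the log2 fold change divided by the root of F and is approximate. Only the 5 libraries entered the fit, without covariates.

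Marker sets were counted in cells thinned to 3000 UMIs. Doublets were scored with Scrublet in scanpy 1.11.5. Named genes were the 10 highest and 10 lowest fold changes among called genes without overlap and with at least 10 CPM in the higher group (clone-based names, sex-linked markers, mitochondrial and ribosomal protein genes left out), the 5 members per list with the highest level and the 3 with the smallest p, and ALB, AFP and COL1A1. Further members (such as HNF4A, CDX2, TP63, KRT14, IVL, KRT1, UGT2B7 and PROX1) were named after their values were seen. A few list members, counted within their lists, are not reported by name here. Members, lists and tests were chosen with earlier results of these data known. Gene positions are from GENCODE v44 on GRCh38, and promoters from RefSeq on GRCh38.p14. Alternatives tried were RLE scaling, DESeq2 1.42.0, other filters on genes and cells, doublet removal, thinning, each library left out and a replicate block. Other culture and treatment groups of the series were not used here, except for levels in the untreated shaker libraries.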

Additional observations from a re-analysis of the deposited data

How the results depend on the processing

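With whole libraries, RLE scaling gave 3480 calls, all deposited barcodes 3538, removal of the highest doublet scores 3404 and the stricter cell filter (1000 genes, 10% mitochondrial) 2791, of which 59.3% were higher against 54.0% in the reported fit. DESeq2 gave 4909 calls and no filter on low counts 5156, while cells thinned to 3000 UMIs gave 2321 with 17188 genes tested. Leaving out 1 library gave 697 to 7165 calls in whole libraries, 1139 to 5633 in mesenchymal-marked cells and 1815 to 6924 in the other cells. Requiring 4 markers gave 3056 and 4150 calls in the marked and the other cells. The 3475 genes called in the reported fit kept their direction in every one of these alternatives in which they were tested, whole libraries only. These fits reuse the libraries in which the genes were called, so a kept direction is no independent support.

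With a replicate block (titles' replicate numbers 1 and 2 in both groups, 3 on day 21 only) 0 genes were called by edgeR in whole libraries (4276 at an unadjusted p under 0.05), 645 in mesenchymal-marked and 1244 in the other cells. Deviations of same-numbered libraries correlated at -0.17 and -0.27 across genes. There were only 2 such pairs, and with 2 day 34 libraries their deviations mirror each other by construction, so these correlations cannot settle whether libraries are paired. Nothing in the labels ties same-numbered libraries, and whether they share more than a number is not known.

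For marker sets, the difference of mean shares in percentage points with at least 4 of 8 markers was -4.69 for the hepatocyte, -2.76 for the gut, 0.632 for the VTCN1 and GABRP, 2.71 for the basal and 0.827 for the suprabasal squamous set, and with the stricter cell filter -5.86 for the hepatocyte and -3.02 for the gut set. Among single genes, log2 fold changes reversed when 1 day 34 library was left out, and over the fits with 1 library left out they ran from -0.17 to 1.02 (COL3A1), -0.18 to 1.15 (VIM), -0.18 to 3.8 (ADM), -0.87 to 3.62 (EGLN3), -0.95 to 1.08 (PGK1), -0.99 to 0.69 (ENO1), -0.65 to 1.80 (CXCL14) and -1.96 to 0.52 (LDHA). The value was below 0 without day 34 replicate 1 for all of these but CXCL14, for which it was below 0 without replicate 2. LDHA was at 0.23 with thinned cells and ENO1 at -0.19 with the replicate block. The cause was not tested. Of 978 gene values with 1 library left out, 233 lost their call. The 978 include genes that were not called in the reported fit, such as AFP and COL1A1, and had no call to lose. Of all genes called in the reported fit, 22.2%, 40.4% and 20% were called again without day 21 replicate 1, 2 or 3. Fewer libraries enter those fits, and the part of this in the lost calls was not tested. The 2 libraries of day 34 limit every comparison, and levels under 1 CPM rest on under 100 UMIs a library.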
